A study of Mus musculus with 5 samples.

Results

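The cytosolic ribosomal proteins are the protein components of the ribosome that works in the cytoplasm. The genes described here were every row of the deposited gene table whose symbol had the form of Rpl or Rps followed by a number and at most 1 letter a, x, y or l, together with Rplp0, Rplp1, Rplp2 and Rpsa, if the row held at least 50 unique molecular identifiers (UMIs, which count captured RNA molecules) over all 5 libraries. Of 81 matching rows, 80 met that minimum, out of 27998 genes in the table, and by their symbols 49 belong to the large subunit and 31 to the small subunit. The rule used only symbols and total UMIs, no difference between conditions. The row just under the minimum was Rpl10l with 5 UMIs, and the 3 members nearest above it were Rpl3l with 586, Rpl39l with 7910 and Rpl6l with 90491 UMIs. The symbol rule leaves out 8 further ribosomal proteins of other symbol forms, among them Rps3a1, Fau, Gnb2l1 and Rpl22l1, which were kept as a separate list. The libraries came from skin of C57BL/6 mice with no transgene or agent named in the labels. In the wounded group (3 libraries), mice 7 weeks old had received a 6-mm punch wound, and on day 4 the site was cut out with a wider punch of 10 mm, so that surrounding tissue was included. The un-wounded group (2 libraries) was intact skin, whose age the labels do not give. Live cells of both groups were sorted and captured in droplets with 10x Genomics chemistry that reads the 3' end of RNA. The labels do not say that the libraries of a group came from separate animals, so every p-value measures the spread between these libraries, which may be technical.

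A ribosome carries a single copy of almost every member, and cells make the members in matched amounts. Most of their mRNAs begin with a cytosine followed by an unbroken stretch of pyrimidines, the 5' terminal oligopyrimidine (TOP) motif, through which the kinase mTOR and the protein LARP1 control how much of each mRNA is translated. Growing and dividing cells raise ribosome production, and Myc is a transcription factor known for driving it. In skin, basal keratinocytes renew the epidermis, spinous keratinocytes are their differentiating progeny, and dermal fibroblasts make the matrix and are activated in a wound. A few members have paralogs with restricted expression: Rpl3l, the copy of Rpl3 used in striated muscle, Rpl39l, a copy of Rpl39 known from male germ cells in mouse, and Rps27l, a p53-responsive copy of Rps27. The values here are levels of polyadenylated RNA, not of ribosomes or protein.

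The bases around the transcription start of 9 members are shown because the TOP motif lies there. They belong to members named in the results, and Rps10 is added for the length of its run. Each line holds 15 bases before the annotated start and 15 from it on, 5' to 3' on the gene's own strand, from RefSeq (GRCm38.p6). Capitals mark the longest unbroken run of C and T of at least 5 bases that touches the 10 bases on either side of the start. The windows are, in the order of the lines, chr4:86857353-86857382 (minus strand), chr7:118116133-118116162 (minus), chr17:27635230-27635259 (minus), chr11:114668565-114668594 (plus), chr7:141447636-141447665 (plus), chr10:128549154-128549183 (minus), chrX:37085208-37085237 (minus), chr16:10170213-10170242 (plus) and chr17:24727811-24727840 (plus).
Rps6: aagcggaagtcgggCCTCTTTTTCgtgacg
Rps15a: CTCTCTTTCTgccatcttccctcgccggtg
Rps10: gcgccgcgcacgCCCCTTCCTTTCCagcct
Rpl38: agcggaagcctcgTTCTTTCCCCgttctct
Rplp2: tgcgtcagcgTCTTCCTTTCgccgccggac
Rpl41: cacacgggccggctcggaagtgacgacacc
Rpl39: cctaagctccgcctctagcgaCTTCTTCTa
Rpl39l: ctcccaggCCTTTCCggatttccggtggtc
Rpl3l: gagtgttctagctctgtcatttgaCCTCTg

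The runs of Rps6, Rps15a, Rpl38 and Rplp2 were 10 bases long and that of Rps10 13, against 8 in Rpl39, 7 in Rpl39l and 5 in Rpl3l, and the Rpl41 window held none of 5 bases at the start that RefSeq gives. The runs of Rps15a and Rpl39l lay wholly before the start, and those of Rpl39 and Rpl3l wholly after it. The Rps15a run opened at the first base shown, so its full length is not known from this window. A second start of Rpl3l, in the window chr17:24732670-24732699 (plus), is not shown and had a longest run of 4 bases. Promoter windows from 250 bases before to 50 after the start were found for 59 of the 80 members. A run of at least 8 C or T touching the 10 bases on either side of the start was present in 28 of these 59 members (47.5%) and in 16.1% of the 27025 genes in the table. The all-pyrimidine hexamer CTCTTT on the gene's strand, which need not lie within such a run, was present within 50 bases of the start in 19 members (32.2%) and in 4.68% of genes. The heptamer CCGGAAG on either strand, an ETS-type core, was present in 25 members (42.4%) and in 9.93% of genes, and GGGCGG, a GC-box core, in 35 members (59.3%) and 38.2% of genes. The hexamer TATAAA was present in 6 members (10.2%) and in 15.7% of genes. These are letter matches in fixed windows and no measure of binding.

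After removal of low-quality barcodes and predicted doublets, 25617 cells remained, with 3987 to 7060 cells and 31337492 to 54433280 UMIs in the wounded libraries and 5038 and 5137 cells and 31564422 and 38403152 UMIs in the un-wounded libraries. Median UMIs per cell were 6069 to 7940 in the wounded and 6033.5 and 6828 in the un-wounded libraries. Between 26 and 63 cell barcodes were shared by each pair of libraries. Cells were clustered without the 80 members, so that the members could not define the classes, and clusters were named from marker genes. The classes are named basal-like and spinous-like (keratinocytes), fibroblast-like and so on, and cluster 25, which scored highest for natural killer cell markers but whose leading genes also included Icos, is named by its leading gene as the Gzmc cluster. The libraries differed in make-up within a group: fibroblast-like cells were 31.2%, 43.2% and 35.3% of kept cells in wounded libraries 1, 2 and 3, against 9.59% and 40.2% in un-wounded libraries 1 and 2, and basal-like cells were 19.6%, 0.614% and 2.91% in the wounded, against 41.4% and 15.9% in the un-wounded libraries. Fewer cells of a type and less RNA per cell cannot be told apart in sums over whole libraries.

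The members together held between 21.0% and 27.2% of all UMIs. Their share was 21.0%, 24.7% and 27.2% in wounded libraries 1, 2 and 3, against 25.5% and 26.8% in un-wounded libraries 1 and 2. The groups overlapped, with wounded library 3 the highest and wounded library 1 the lowest of the 5. The mean was 24.3% ± 3.12 in wounded and 26.1% ± 0.906 in un-wounded skin (SD, n = 3 and 2), a difference of -1.86 percentage points (exact two-sided permutation test, p = 0.6). With 3 libraries against 2 there are 10 assignments and the smallest possible p is 0.1, so this design cannot pass 0.05 for a single value. Small-subunit members held 0.737 to 0.767 times the UMIs of the large-subunit members over the 5 libraries, a ratio that moved far less than the total.

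Within cell classes the order of the groups was different from that in whole libraries. In fibroblast-like cells the members held 15.7%, 21.0% and 25.4% of UMIs in wounded libraries 1, 2 and 3, against 11.7% and 14.9% in un-wounded libraries 1 and 2. Every wounded library was above both un-wounded libraries, with means of 20.7% ± 4.84 in wounded and 13.3% ± 2.30 in un-wounded skin, a difference of 7.41 points (exact permutation test, p = 0.2, adjusted over 4 classes 0.6). In basal-like cells the share was 27.7%, 37.3% and 37.8% in the wounded libraries, against 27.4% and 34.7% in the un-wounded libraries, a difference of 3.23 points with overlapping groups (exact permutation test, p = 0.5, adjusted 0.6). Wounded library 2 held only 27 basal-like and 25 spinous-like cells. The spinous-like share was 27.5%, 32.6% and 38.2% in the wounded and 26.6% and 33.8% in the un-wounded libraries, again overlapping (difference 2.52 points, exact permutation test, p = 0.6). In the Gzmc cluster the share was 23.0%, 33.9% and 34.1% in the wounded and 20.8% and 28.4% in the un-wounded libraries, where un-wounded library 1 had 32 cells (difference 5.75 points, exact permutation test, p = 0.3, adjusted 0.6). Weighting these 4 classes equally gave 29.5% ± 5.39 in wounded and 24.8% ± 4.47 in un-wounded skin, a difference of 4.73 points (exact permutation test, p = 0.4), with the sign opposite to that of whole libraries. Cells of unnamed clusters lay outside these 4 classes. They were 13.9%, 5.89% and 5.44% of kept cells in wounded libraries 1, 2 and 3, against 30.8% and 29.7% in the un-wounded libraries. Their mean member share was 32.7% in wounded and 31.0% in un-wounded skin.

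**Figure D1:**
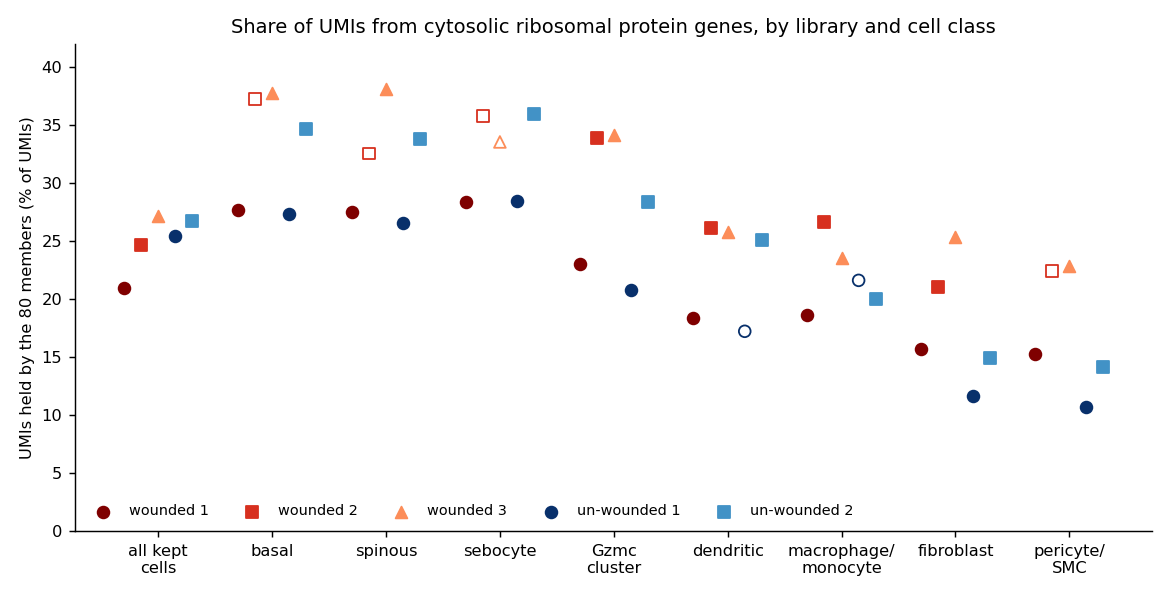
Share of UMIs held by the 80 members (%, vertical axis) in all kept cells and in each cell class, 1 marker per library, with wounded libraries left of un-wounded libraries and open markers for fewer than 30 cells. Of the classes drawn, basal-like, spinous-like and sebocyte-like cells lie above fibroblast-like and pericyte-like cells in each library, and in fibroblast-like cells the 3 wounded libraries (15.7% to 25.4%) lie above the 2 un-wounded libraries (11.7% and 14.9%).

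Keratinocytes gave the members a larger part of their RNA than fibroblast-like cells did. Compared within each library, basal-like cells gave the members 15.2 ± 3.17 points more of their UMIs than fibroblast-like cells (SD over 5 libraries, range 12 to 19.8, higher in 5 of 5 libraries). Spinous-like cells exceeded fibroblast-like cells by 14.0 points, the Gzmc cluster exceeded fibroblast-like cells by 10.3 points and basal-like cells exceeded the Gzmc cluster by 4.90 points, each in 5 of 5 libraries. For each of these 4 pairs the exact sign-flip test over libraries gave p = 0.0625, the smallest that 5 libraries allow, and 0.09375 after adjustment over the 6 pairs compared. Basal-like exceeded spinous-like cells by 1.21 points (4 of 5 libraries, exact p = 0.1875), and spinous-like cells exceeded the Gzmc cluster by 3.69 points (4 of 5 libraries, exact p = 0.125). The remaining classes were described only. Sebocyte-like cells had a share of 28.4% in wounded library 1 and of 28.5% and 36.0% in the un-wounded libraries, among libraries with at least 30 such cells. Pericyte-like or smooth muscle-like cells had 15.2% and 22.9% in wounded libraries 1 and 3, against 10.7% and 14.2% in the un-wounded libraries. Neutrophil-like cells had 19%, 9.69% and 13.2% in the wounded libraries.

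The libraries also had an order of their own that ran through the classes. Among classes with at least 30 cells in both libraries, un-wounded library 1 was below un-wounded library 2 in 7 of 7. Wounded library 1 was below wounded library 2 in 5 of 6 classes and below wounded library 3 in 9 of 10, with neutrophil-like cells the exception in both. Genes induced by tissue dissociation (13 genes such as Fos, Jun and Junb) held 1.93%, 1.31% and 0.926% of UMIs in wounded libraries 1, 2 and 3, against 2.59% and 1.58% in un-wounded libraries 1 and 2, so that within each group the library with the most of these UMIs had the lowest member share. In fibroblast-like cells these genes held 1.62%, 1.75% and 1.07% in the wounded, against 2.25% and 1.86% in the un-wounded libraries. There the relation did not hold in the wounded group, where library 2 had the most of these UMIs and library 1 the lowest member share. Un-wounded library 1 had both. Mitochondrial transcripts held 2.48%, 2.62% and 1.98% of UMIs in the wounded and 2.83% and 3.07% in the un-wounded libraries. The part of these in the member shares was not tested.

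Among single members of whole libraries, the 5 with the most UMIs were Rpl41, Rpl13, Rps19, Rplp0 and Rps14, and their levels are given in CPM (UMIs of the gene scaled by the UMIs of the library), a unit that takes no account of transcript length because 1 molecule gives 1 UMI. Rpl41, the shortest protein of the large subunit, had 6114, 7673 and 8445 CPM in wounded libraries 1, 2 and 3, against 3416 and 6667 CPM in un-wounded libraries 1 and 2, with overlapping groups and un-wounded library 1 the lowest. Rpl13 had 6033, 5043 and 5727 CPM in the wounded and 8607 and 6376 CPM in the un-wounded libraries, lower in all 3 wounded libraries. Rps19, a small-subunit protein whose loss underlies Diamond-Blackfan anaemia in humans, had 5862, 4756 and 5730 CPM in the wounded and 7968 and 5972 CPM in the un-wounded libraries, again without overlap. Rplp0, the base of the ribosomal stalk, had 5673, 3790 and 5166 CPM in the wounded and 8396 and 5504 CPM in the un-wounded libraries, and the groups overlapped. Rps14 had 5011, 5000 and 5564 CPM in the wounded and 6533 and 5093 CPM in the un-wounded libraries, also overlapping. Un-wounded library 1, which had the largest share of basal-like cells, was the highest of the 5 for Rpl13, Rps19, Rplp0 and Rps14. Of 79 members with a mean of at least 10 CPM, 14 were lower in every wounded than in every un-wounded library, where 21.4% of all genes were, and 0 were higher in every wounded library, where 20.2% of all genes were.

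The fit over whole libraries called no member. Summed UMIs were tested with edgeR's quasi-likelihood test and Benjamini-Hochberg adjustment over all genes, at an adjusted p of 0.05. Of 80 members tested, 0 passed, where 0.607% of 15497 genes did, and 1 had an unadjusted p under 0.05, where 25.9% of genes did. DESeq2 called 1 member, Rpl3l, where it called 17.1% of genes. The median log2 fold change (wounded over un-wounded) was -0.05 over members and -0.04 over all genes, and single members ran from -0.82 for Rpl6l to 3.79 for Rpl3l. Rpl3l had the smallest p, with a log2 fold change of 3.79 ± 0.65 (SE, adjusted p = 0.0658). Next were Rpl15, a large-subunit protein, at -0.79 ± 0.36 (adjusted p = 0.223) and Rpl6l at -0.82 ± 0.37 (adjusted p = 0.226). Rpl15 had 995, 949 and 903 CPM in wounded libraries 1, 2 and 3, against 2143 and 1143 CPM in the un-wounded libraries, without overlap and with un-wounded library 1 the highest.

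In basal-like and spinous-like cells the members leaned upward in wounded skin without passing the test. Of 79 members tested in basal-like cells, 0 passed in edgeR, where 2.04% of 10873 genes did. At an unadjusted p under 0.05 the count was again 0, where 8.85% of genes passed, and DESeq2 called 0, where it called 0.892% of genes. The median log2 fold change was 0.37 over members and -0.03 over all genes, with 77 of 79 members positive, from -0.33 for Rpl15 to 0.74 for Rpl41. Without library scaling by TMM the median of all basal-like genes was -0.25 and the members' median was 0.15. The 3 members with the smallest p were Rpl41 (0.74 ± 0.37, adjusted p = 0.596), Rpl36, a large-subunit protein (0.64 ± 0.35), and Rps26, a small-subunit protein at the mRNA exit channel (0.61 ± 0.37). Rpl41 had 6187, 9200 and 8360 CPM in basal-like cells of wounded libraries 1, 2 and 3, against 3553 and 7378 CPM in the un-wounded libraries, where the groups overlapped because wounded library 1 lay below un-wounded library 2. In spinous-like cells 0 of 78 members passed in edgeR, where 1.31% of 9899 genes did, 0 had an unadjusted p under 0.05, where 7.69% did, and DESeq2 called 0, where it called 1.21% of genes. The median there was 0.34 over members and -0.03 over all genes, with 76 of 78 positive and Rpl41 again highest (0.84 ± 0.42, adjusted p = 0.701), ahead of Rps26 at 0.67 and Rpl36 at 0.61. Without TMM the spinous-like median was 0.11 over members and -0.22 over all genes, with 62 of 78 members positive. In basal-like cells 4 of 78 members were higher in every wounded library, where 5.81% of genes were, and 2 were lower, where 21.8% were. Spinous-like cells had 1 of 78 higher, where 5.18% of genes were, and 1 lower, where 18.1% were.

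In fibroblast-like cells the members leaned upward together in wounded skin. All 79 members tested had positive log2 fold changes, with a median of 0.75 against -0.01 over all genes, from 0.19 for Rps27l to 1.08 for Rps20. None passed the edgeR test: 0 of 79, where 7.54% of 13308 genes passed, with 21 members at an unadjusted p under 0.05, where 21.8% of genes were. DESeq2 called 10 of 79 members higher, where it called 7.33% of genes higher. Among them were Rpl32, Rpl36a, Rpl41, Rps15a and Rps19. The CPM of 43 of 79 members was higher in every wounded than in every un-wounded library, where 15.3% of genes were, and 0 were lower, where 22.4% were.

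The 3 members with the smallest p in fibroblast-like cells came from both subunits. Rps15a, a small-subunit protein, had 2361, 3234 and 4046 CPM in wounded libraries 1, 2 and 3, against 1428 and 2030 CPM in un-wounded libraries 1 and 2. All 3 wounded libraries were above both un-wounded libraries, and the log2 fold change was 1.01 ± 0.37 (edgeR, adjusted p = 0.144). Rpl36a, a large-subunit protein next to the exit site for transfer RNA, had 1410, 1980 and 2222 CPM in the wounded and 833 and 1250 CPM in the un-wounded libraries, without overlap (0.96 ± 0.35, adjusted p = 0.145). Rpl32, also of the large subunit, had 3055, 3417 and 4566 CPM in the wounded and 2167 and 2170 CPM in the un-wounded libraries, without overlap (0.88 ± 0.33, adjusted p = 0.153). Rps20, with the largest fold change, had 1725, 3354 and 4040 CPM in the wounded and 1180 and 1949 CPM in the un-wounded libraries. Its groups overlapped, since wounded library 1 lay below un-wounded library 2 (1.08 ± 0.45, adjusted p = 0.197).

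**Figure D2:**
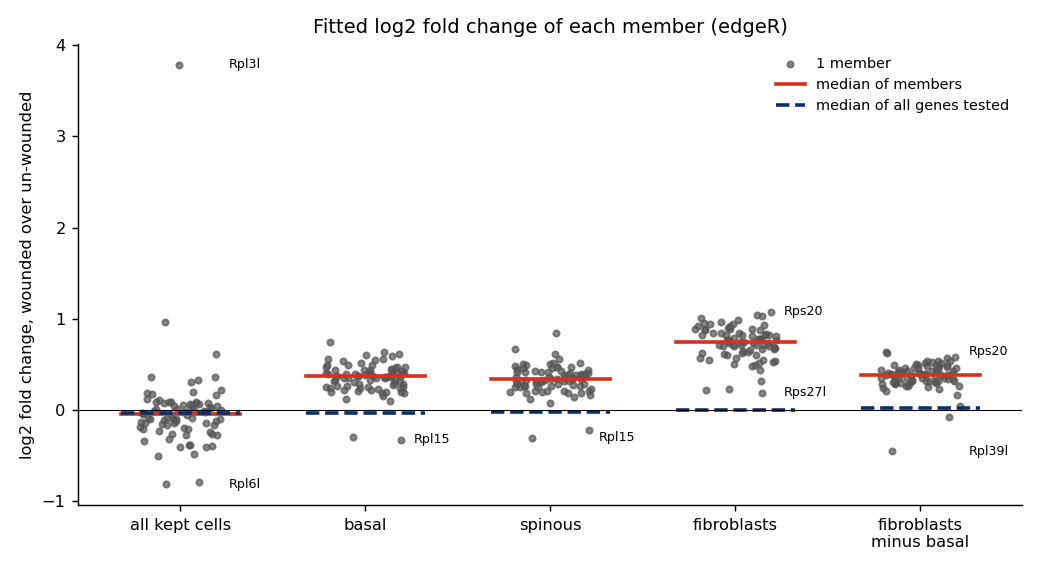
Log2 fold change, wounded over un-wounded, of each tested member (points) in whole libraries and in basal-like, spinous-like and fibroblast-like cells, and the fibroblast-like minus basal-like difference, with the members' median as a red line and the median of all genes as a dashed blue line. The members' median is -0.05 in whole libraries, 0.37 in basal-like, 0.34 in spinous-like and 0.75 in fibroblast-like cells, and 0.39 for the difference.

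The composition of the fibroblast-like class differed between the groups. Clusters 10 (led by Cxcl5, Cthrc1 and Sfrp2) and 11 (led by Cxcl13, Thbs4 and C3) held 990 and 783 cells of wounded libraries but 1 and 9 cells of un-wounded libraries. Without them the member share was 13.6%, 18.4% and 22.9% in wounded libraries 1, 2 and 3, against 11.7% and 14.9% in un-wounded libraries 1 and 2, so that wounded library 1 then lay below un-wounded library 2, and the difference was 5.03 points. Single clusters present in both groups were compared as well. In cluster 1, the largest (led by Cpz and Cldn10), the share was 12.2%, 16.9% and 19.3% in the wounded and 11.2% and 13.1% in the un-wounded libraries. In cluster 5 (led by Lbp and Gpx3) it was 16.3%, 21.3% and 26.6% in the wounded and 13.8% and 18.8% in the un-wounded libraries. In cluster 0 (led by Igfbp2 and Stc1) it was 11.9%, 16% and 18.9% in the wounded and 10.8% and 12.9% in the un-wounded libraries. In each of these 3 clusters wounded libraries 2 and 3 were above both un-wounded libraries and wounded library 1 lay between them.

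The wound effect on the members in fibroblast-like cells was set directly against that in basal-like cells by an interaction term in edgeR. The median difference of the log2 fold changes, fibroblast-like minus basal-like, was 0.39 over members and 0.02 over all genes, positive for 77 of 79 members. No member passed, 0 of 79, where 3.33% of 13467 genes did, with 26 members at an unadjusted p under 0.05, where 14% of genes were. DESeq2 was not run for this term. The smallest p-values belonged to Rps20 (0.64 ± 0.21, adjusted p = 0.108), Rpl39, a small protein at the peptide exit tunnel (0.58 ± 0.21, adjusted p = 0.157), and Rpl15 (0.63 ± 0.22, adjusted p = 0.158). Differences ran from -0.46 for Rpl39l to 0.64 for Rps20. When each library was scaled to the summed UMIs of the members, so that only unequal change among members remained, 1 of 80 members, Rpl3l, was called in whole libraries (log2 fold change 3.88, adjusted p = 0.0111), where 7.34% of genes were. Scaled in this way, single members ran from -0.69 for Rpl15 to 0.47 for Rpl39l in basal-like cells, from -0.67 for Rpl15 to 0.55 for Rpl41 in spinous-like cells and from -0.54 for Rpl6l to 0.33 for Rpl41 in fibroblast-like cells.

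Differences among members went with coding length in some libraries, most in wounded library 2 and in both un-wounded libraries, and hardly in wounded library 1. The coding length of each member was the longest coding sequence in GENCODE, from 138 bases for Rpl41 and 153 for Rpl39 and Rpl39l to 1257 for Rpl4, and 17 of the 77 members used were shorter than 350 bases. These short members held 20.6%, 25.3% and 21.9% of all member UMIs in wounded libraries 1, 2 and 3, against 14.2% and 23.2% in un-wounded libraries 1 and 2. Un-wounded library 1 was the lowest and wounded library 2 the highest, and the groups overlapped. The same 17 members held 22.8%, 26.3% and 22.9% in fibroblast-like cells of the wounded libraries, against 17.1% and 26.5% in the un-wounded libraries. In basal-like cells they held 19%, 23.2% and 19.2% in the wounded, against 13.9% and 21.8% in the un-wounded libraries. Across the 77 members, Pearson's r between log2 coding length and a library's log2 deviation from the mean member composition was 0.17, -0.81 and -0.33 in wounded libraries 1, 2 and 3, against 0.82 and -0.55 in un-wounded libraries 1 and 2. In basal-like cells it was 0.12, -0.77 and 0.01 in the wounded and 0.78 and -0.60 in the un-wounded libraries. In fibroblast-like cells it was 0.19, -0.72 and -0.02 in the wounded and 0.73 and -0.66 in the un-wounded libraries, so the sign in un-wounded library 1 was opposite to that in un-wounded library 2 in whole libraries and in both classes. These are descriptions across members that share each library, with no test. Rpl41, Rpl36 and Rps26, named above for keratinocytes, belong to the shorter members, and un-wounded library 1 was the lowest library for Rpl41 in whole libraries and in all 3 classes.

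**Figure D3:**
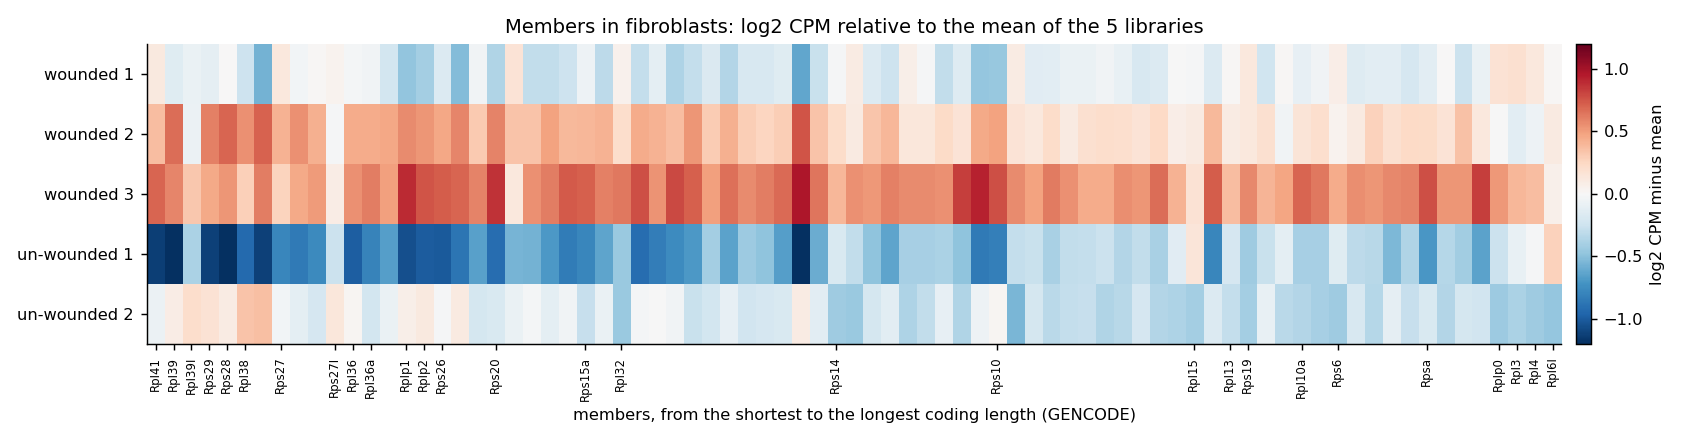
Heat map of members in fibroblast-like cells, log2 CPM relative to the mean of the 5 libraries, with libraries in rows (wounded above un-wounded) and members in columns from the shortest to the longest coding length, with Rpl6l, which has none in GENCODE, last, and with only some members labelled. The un-wounded rows are mostly below the mean, un-wounded library 1 most of all among the short members at the left, and wounded library 3 is mostly above it.

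The proteins of the ribosomal stalk, which recruits the elongation factors, differed from each other in pattern. In fibroblast-like cells Rplp0 had 3546, 3151 and 4529 CPM in wounded libraries 1, 2 and 3, against 2644 and 2328 CPM in the un-wounded libraries, without overlap. Rplp1 had 2549, 5230 and 6566 CPM in the wounded and 1698 and 3706 CPM in the un-wounded libraries, and Rplp2 had 1688, 3221 and 3785 CPM in the wounded and 1121 and 2428 CPM in the un-wounded libraries. Both overlapped between groups, with the library numbered 1 the lowest within each group, which was not so for Rplp0. In basal-like cells Rplp0 had 8656, 7998 and 9410 CPM in the wounded and 9223 and 8048 CPM in the un-wounded libraries, above its level in fibroblast-like cells of every library, and the groups overlapped. Over whole libraries Rplp1 had 2999, 5291 and 6117 CPM in the wounded and 3409 and 6184 CPM in the un-wounded libraries. Rplp2 had 2358, 4219 and 4266 CPM in whole wounded and 2469 and 4141 CPM in whole un-wounded libraries, and neither separated the groups.

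Rpsa, the small-subunit protein also known as the laminin receptor precursor, had 1445, 1860 and 2712 CPM in fibroblast-like cells of wounded libraries 1, 2 and 3, against 973 and 1397 CPM in the un-wounded libraries, without overlap. In whole libraries Rpsa had 1779, 2318 and 2799 CPM in the wounded and 2240 and 2465 CPM in the un-wounded libraries, which overlapped. Rps6, the small-subunit protein that S6 kinase phosphorylates, had 2399, 2340 and 3092 CPM in fibroblast-like cells of the wounded libraries, against 2048 and 1681 CPM in the un-wounded libraries, without overlap. In whole libraries Rps6 had 3294, 2966 and 3524 CPM in the wounded and 4315 and 2989 CPM in the un-wounded libraries. Rpl10a, a large-subunit protein used as the tag in ribosome purification from mice, had 1551, 1853 and 2691 CPM in fibroblast-like cells of the wounded and 1259 and 1300 CPM in those of the un-wounded libraries, without overlap. In whole libraries Rpl10a had 2174, 2122 and 2809 CPM in the wounded and 2897 and 2464 CPM in the un-wounded libraries. Each of the 3 separated the groups in fibroblast-like cells and overlapped over whole libraries.

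Rpl3l was carried by muscle cells. Rpl3l (chr17:24727820-24736143, plus strand, GRCm38) had 218, 99 and 181 UMIs in wounded libraries 1, 2 and 3, against 14 and 5 in un-wounded libraries 1 and 2, or 4.00, 3.16 and 4.55 CPM in the wounded and 0.444 and 0.130 CPM in the un-wounded libraries, without overlap. Skeletal muscle-like cells numbered 150, 68 and 174 in the wounded libraries, against 6 and 4 in the un-wounded libraries, and held 82.4% of its 517 kept UMIs. Within them, 163 of 211 cells of cluster 19, led by the contractile genes Acta1 and Myl1, had an Rpl3l UMI (77.3%, 95% Clopper-Pearson interval 71.0% to 82.7%, which covers counting error only). In cluster 32, led by the myogenic regulator Myog and by Cdh15, 2 of 191 cells did (1.05%). In cluster 19 Rpl3l made up 56.3%, 70.3% and 42.2% of the summed Rpl3l and Rpl3 UMIs in wounded libraries 1, 2 and 3. Cells that should lack it gave a background of 4 of 4431 basal-like (0.0903%, median 6534 UMIs per cell) and 12 of 8059 fibroblast-like cells (0.149%, median 6962 UMIs). Shares above these were also seen in neutrophil-like cells, with 14 of 223 cells (6.28%, median 2887 UMIs), in dendritic cell-like cells, with 24 of 1692 (1.42%), and in macrophage-like or monocyte-like cells, with 21 of 1853 (1.13%). Most basal-like cells came from un-wounded libraries, which held few muscle-like cells, and the part of free RNA in these shares was not tested.

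Rpl39l was a fibroblast transcript in these skin samples. Rpl39l (chr16:10170226-10174911, plus strand, GRCm38) had 89.8, 90.5 and 119 CPM in fibroblast-like cells of wounded libraries 1, 2 and 3, against 73.3 and 110 CPM in those of un-wounded libraries 1 and 2, and the groups overlapped. Fibroblast-like cells held 92.0% of its kept UMIs, and 3446 of 8059 of them had one (42.8%, interval 41.7% to 43.8%), against 44 of 4431 basal-like cells (0.993%) at a similar median depth of 6962 and 6534 UMIs. Pericyte-like or smooth muscle-like cells were between them with 185 of 785 cells (23.6%). In basal-like cells Rpl39l had 1.52, 22.5 and 0.799 CPM in wounded libraries 1, 2 and 3, where the value of library 2 rests on 4 UMIs in 27 cells, against 0.459 and 3.20 CPM in the un-wounded libraries. Rpl39l made up 4.2%, 2.44% and 3.37% of the summed Rpl39l and Rpl39 UMIs in fibroblast-like cells of the wounded libraries, against 6.89% and 4.34% in the un-wounded libraries. Over whole libraries Rpl39l had 37.2, 44.8 and 55.0 CPM in the wounded and 6.15 and 43.3 CPM in the un-wounded libraries, where un-wounded library 1, with the fewest fibroblast-like cells, was the lowest.

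**Figure D4:**
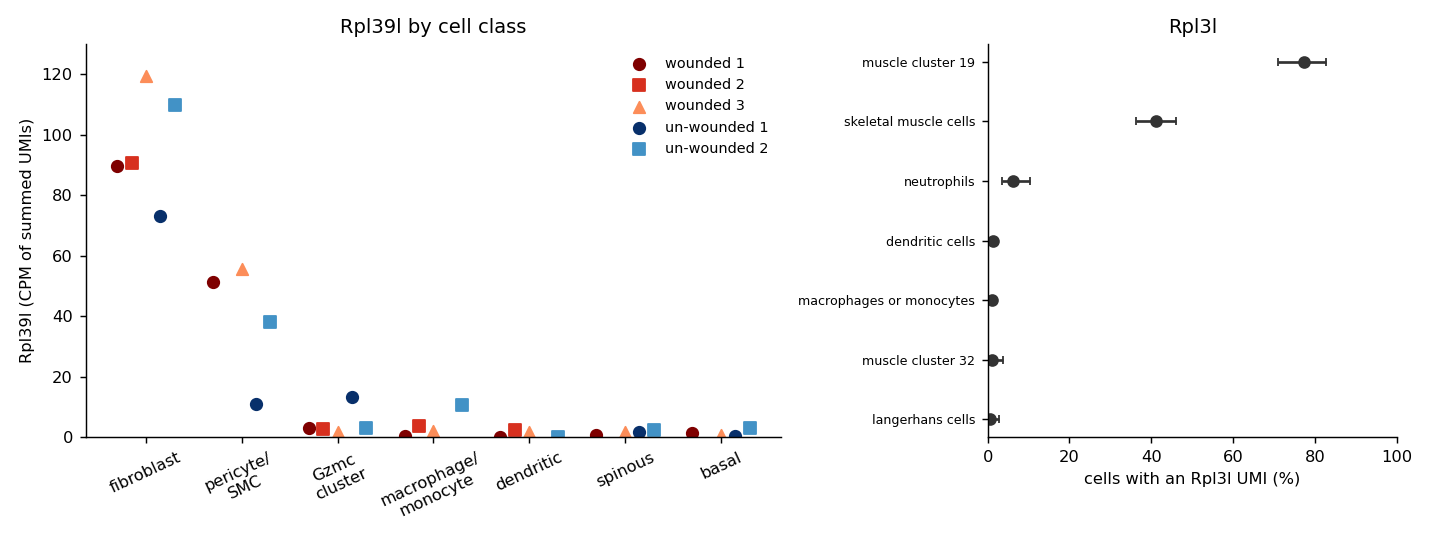
Left, Rpl39l level (CPM of summed UMIs) by cell class in libraries with at least 30 cells of the class. Right, percentage of cells with an Rpl3l UMI with 95% Clopper-Pearson intervals, where 77.3% of cells of muscle cluster 19 and 1.05% of cells of muscle cluster 32 had one.

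Of the other paralogs, Rps27l had 508, 490 and 527 CPM in fibroblast-like cells of wounded libraries 1, 2 and 3, against 413 and 545 CPM in those of un-wounded libraries 1 and 2, with overlapping groups and the smallest fold change of the 79 members there. Its share of the members' UMIs, relative to the mean of the classes in the same library, was -1.32 on the log2 scale in the Gzmc cluster and positive in pericyte-like or smooth muscle-like (0.67) and fibroblast-like cells (0.49). This ratio also moves with the member total, which was lower in fibroblast-like than in basal-like cells. In basal-like cells Rps27l had 556 and 538 CPM in wounded libraries 1 and 3, and 548 and 567 CPM in the un-wounded libraries. Each was above the fibroblast-like value of the same library. Rpl6l, a near-identical copy of Rpl6, made up 12.7%, 12.3% and 9.38% of the summed Rpl6l and Rpl6 UMIs in whole wounded libraries, against 18.5% and 11.7% in whole un-wounded libraries, and how reads were divided between the 2 copies is uncertain. Among the ribosomal proteins left out by the symbol rule, Rpl22l1, a copy of Rpl22, made up 61.7%, 45.8% and 47.5% of the summed Rpl22l1 and Rpl22 UMIs in fibroblast-like cells of the wounded libraries, against 50.9% and 44.6% in the un-wounded libraries. In basal-like cells Rpl22l1 made up 44.7%, 32% and 27.2% in the wounded and 40.2% and 30.4% in the un-wounded libraries, and the groups overlapped in both classes. The 16 rows with pseudogene symbols of ribosomal proteins held 1.32% of the UMIs of members and pseudogenes together.

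Most members kept nearly the same proportion of the member total in each class. Exceptions, apart from Rpl3l and Rpl39l, included the following. Rplp0 was 0.61 above the class mean in spinous-like cells and 0.39 above it in basal-like cells, higher in 4 of 4 libraries in both. Rps27 was 0.61 above the mean in neutrophil-like cells (3 of 3 libraries), and Rps29 was 0.55 above it in macrophage-like or monocyte-like cells (4 of 4). Rps29 was -0.42 and Rpl38 -0.45 relative to the mean in basal-like cells, and Rpl41 was 0.43 above it in fibroblast-like cells in 5 of 5 libraries.

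Clusters that differ in state within a class were compared inside each library, as a description, because their depth differed as well. Fibroblast-like clusters 10 and 11 had member shares of 17.5%, 25.3% and 26.8% in wounded libraries 1, 2 and 3, against 13.6%, 18.4% and 22.9% in the other fibroblast-like clusters of the same libraries. Their median UMIs per cell were 12512.5, 11588 and 19220.5, against 5898.5, 6114.5 and 7370.5 in the other clusters. The Myog-led muscle cluster 32 had 26.5% and 35.1% in wounded libraries 1 and 3, against 13% and 16.8% in the Acta1-led muscle cluster 19. Macrophage-like cluster 16, led by the osteoclast-type genes Acp5 and Mmp9, had 27.0%, 34.0% and 35.3% in wounded libraries 1, 2 and 3, against 15.8%, 23.2% and 22.1% in the other macrophage-like or monocyte-like clusters. Cluster 20, led by cell division genes such as Ube2c and Top2a, lay on the lower side: it had 20.3% and 33.2% in wounded libraries 1 and 3 and 19% and 25.2% in un-wounded libraries 1 and 2, against 27.7% and 37.8% in basal-like cells of those wounded and 27.4% and 34.7% in basal-like cells of those un-wounded libraries. The Gzmc cluster had 20.8% and 28.4% in the un-wounded libraries, against 11.5% and 15.1% in the Cd3g-led T cell-like cluster 17. In each of these 5 comparisons the direction was the same in every library with at least 30 cells on both sides.

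**Figure D5:**
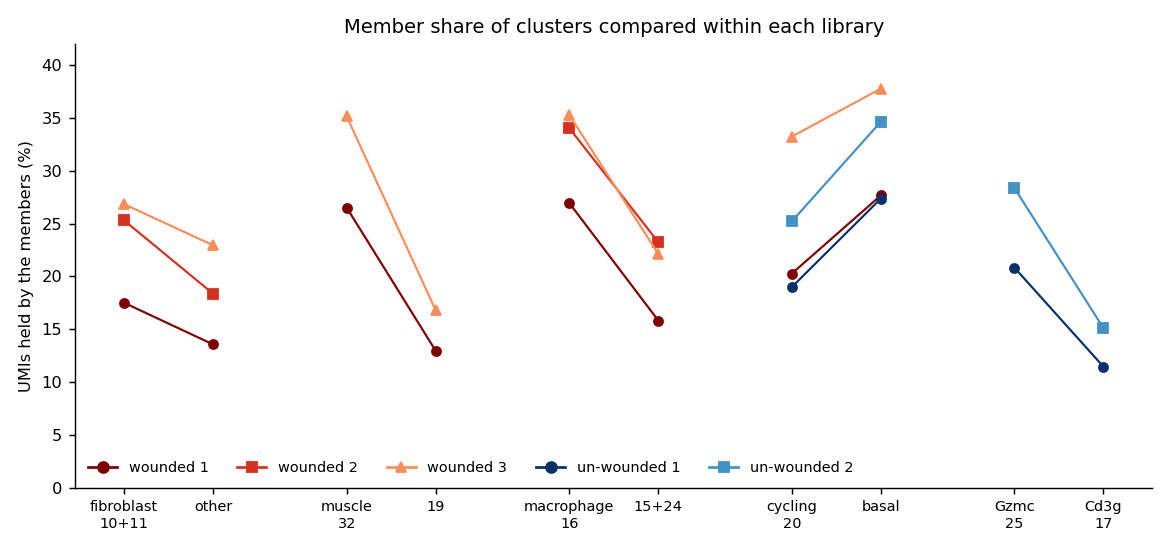
Share of UMIs held by the members (%) in pairs of clusters joined within each library. The line falls from left to right for the fibroblast, muscle, macrophage and Gzmc comparisons and climbs for the cycling cluster, which is below basal-like cells in all 4 libraries.

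Genes that work with the members were summarised from lists. Translation elongation factors and other TOP mRNAs (16 genes) had 1 gene called higher in fibroblast-like cells, where 5.88% of genes were called higher, and 0 in the other fits. That gene was Pabpc1, the poly(A)-binding protein, with 434, 389 and 483 CPM in fibroblast-like cells of wounded libraries 1, 2 and 3, against 210 and 216 CPM in the un-wounded libraries, without overlap (log2 fold change 1.14 ± 0.25, edgeR, adjusted p = 0.0244). All 16 had positive fold changes there, with a median of 0.54. The most abundant was Eef1a1, which delivers transfer RNAs to the ribosome, with 3410, 4140 and 5300 CPM in fibroblast-like cells of the wounded and 2880 and 3253 CPM in those of the un-wounded libraries. Tpt1 and Vim followed, with 2334 to 4760 and 1895 to 3174 CPM in whole wounded, against 2837 and 4491 and 274 and 1281 CPM in whole un-wounded libraries.

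The regulators of ribosome production differed from the members in that some passed the test. Of 14 tested genes of mTOR and TOP mRNA control, 2 were called higher in fibroblast-like cells, where 5.88% of genes were, while 6 of the 14 had positive fold changes and the median was -0.09. Ddit4, a stress-induced inhibitor of mTOR complex 1, had 79.0, 48.7 and 95.2 CPM in fibroblast-like cells of wounded libraries 1, 2 and 3, against 16.8 and 15 CPM in the un-wounded libraries, a log2 fold change of 2.35 ± 0.33 (edgeR, adjusted p = 0.00379). Myc had 104, 70.7 and 76.3 CPM in the wounded and 25 and 35 CPM in the un-wounded libraries, a log2 fold change of 1.54 ± 0.25 (adjusted p = 0.00745). Neither gene overlapped between groups. In basal-like cells Ddit4 had 21.5, 44.9 and 35.9 CPM in the wounded and 18.5 and 33.5 CPM in the un-wounded libraries, and Myc had 65.6, 56.2 and 35.1 CPM in the wounded and 49.3 and 45.5 CPM in the un-wounded libraries, both with overlap. Both passed the interaction test, where 1.66% of genes passed with a positive difference, with a wound effect larger in fibroblast-like than in basal-like cells by 2.14 ± 0.35 for Ddit4 (adjusted p = 0.000856) and 1.28 ± 0.29 for Myc (adjusted p = 0.0125). The basal-like values of wounded library 2 rest on 27 cells, with 178048 UMIs over all genes. The fibroblast-like sums include clusters 10 and 11, nearly absent from un-wounded libraries. Without those clusters edgeR called 33 of 12135 genes in fibroblast-like cells, against 1003 of 13308 with them. The part of this make-up in the Ddit4, Myc and Pabpc1 values was not tested, and the interaction was not refitted without them. The most abundant gene of the list, Rheb, the activator of mTOR complex 1, had 156 to 282 CPM in whole wounded and 257 and 168 CPM in whole un-wounded libraries.

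The other lists had 0 genes called by edgeR in every fit. The 8 ribosomal proteins left out by the symbol rule had a median log2 fold change of 0.72 in fibroblast-like cells, close to the members, with Rps3a1 at 3164 to 3712 CPM in whole wounded and 4501 and 3932 CPM in whole un-wounded libraries. Fau and Gnb2l1 came next in abundance, with 2289 to 4042 and 838 to 1386 CPM in whole wounded, against 2603 and 3099 and 1129 and 1342 CPM in whole un-wounded libraries. The 15 initiation factors, led by Eif1, Eif5a and Eif4a1, had a fibroblast-like median of 0.17. The 31 ribosome biogenesis factors, led by Npm1, Ncl and Nop10, had a median of 0.04. Npm1, the nucleolar chaperone nucleophosmin, had 511, 467 and 648 CPM in fibroblast-like cells of the wounded and 270 and 331 CPM in those of the un-wounded libraries, which did not overlap. The 11 genes of RNA polymerase I transcription, led by Polr1d, Polr1c and Ubtf, had a median of -0.06, and the 76 tested mitochondrial ribosomal proteins, led by Mrpl52, Mrpl33 and Mrpl23, of 0.16. The 13 dissociation stress genes had a median of -0.30. Mitochondrial ribosomal proteins together held 0.502%, 0.436% and 0.516% of UMIs in fibroblast-like cells of the wounded libraries, against 0.467% and 0.457% in those of the un-wounded libraries, and the groups overlapped. The cytosolic members did not overlap in the same sums, but did once clusters 10 and 11 were left out. The mitochondrial list was not compared without those clusters.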

How the data were processed

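Per the labels and the submitters' processing notes, the authors made droplet libraries and deposited whole-number UMI counts per gene and cell barcode from Cell Ranger 1.3.1 on mm10; filters before deposit are not given in the sources used here. The members and lists were chosen with earlier results of these data known. Barcodes with under 200 genes, over 10% mitochondrial UMIs or a Scrublet doublet call were removed. Cells were clustered (scanpy 1.11.5, Leiden resolution 1, 30 components of 2000 variable genes without the members) and clusters named from at least 3 markers. Of 33 clusters, 6 stayed unnamed. Summed counts per library and class were tested with edgeR 4.0.16 (quasi-likelihood, TMM, filterByExpr, Benjamini-Hochberg 0.05), with DESeq2 1.42.0 as alternative, and shares with exact permutation tests. Kept cells held 31337492 to 54433280 UMIs per library, and intervals cover counting error only. Other settings tried were no TMM, no low-count filter, a replicate block and leaving out each library. Promoters came from RefSeq and gene positions and coding lengths from GENCODE vM21. On simulated data edgeR recovered 27.9% of 2-fold, 93.9% of 4-fold and 100% of 16-fold changes in fibroblast-like sums, with 13 of 160 calls false. In whole libraries it recovered 1.47%, 33.3% and 98.5%. In the interaction it recovered 5.88%, 71.2% and 100%, with 15 of 132 calls false. Replicates differed beyond sampling noise in every pair. Genes named were the 5 members with the most UMIs, the 3 with the smallest p in each fit, the stalk and laminin receptor members, Rps6, Rpl10a, the paralogs, and each list's 3 most abundant or called genes; the largest and smallest fold changes, Rpl38, Rpl22l1, members that stood apart in a class and those in the sequence lines were chosen after their values were seen. A few genes are not reported here by name.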

Additional observations from a re-analysis of the deposited data

Results flagged for a closer look

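The wound effect on 2 genes of mTOR and TOP mRNA control differed between cell classes by edgeR's interaction test. The log2 fold change in fibroblast-like cells minus that in basal-like cells was 2.14 for Ddit4 and 1.28 for Myc. The test included fibroblast-like clusters 10 and 11, nearly absent from un-wounded libraries, and was not repeated without them. Its basal-like side held only 27 cells in wounded library 2. No member passed the same interaction test.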

How the results depend on the processing

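The member share of whole libraries, fibroblast-like cells and the Gzmc cluster kept its direction when each library was left out in turn, but those of the keratinocyte classes did not. Leaving out each library gave differences of -0.412 to 6.87 points in basal-like cells, the lowest without un-wounded library 1. In spinous-like cells they were -1.10 to 6.14 points, with -0.188 without wounded library 3 and -1.10 without un-wounded library 1. The median log2 fold change over members in whole libraries was -0.18 to 0.14, positive without wounded library 1. Replicate numbers are shared by the groups without a stated meaning, so pairing them is a description. No un-wounded library is numbered 3, so a replicate block rests its group difference on libraries 1 and 2 of each group. Its spinous-like difference of -0.188 points is therefore the same value as without wounded library 3, and no separate check. The block called 11 members higher in basal-like, 4 in spinous-like and 3 in fibroblast-like cells, where it called 4.42%, 2.62% and 8.86% of genes higher. Of these members, 11 of 11, 4 of 4 and 3 of 3 had a coding length under 350 bases. Residuals of same-numbered libraries correlated at 0.467 and 0.487 over whole libraries. The residuals of the 2 un-wounded libraries mirror each other, so the crossed pairings gave -0.467 and -0.487. These correlations are therefore not independent of each other. In whole libraries DESeq2, no filter on low counts, scaling to the member total and leaving out wounded library 1 each called 1 member, Rpl3l, and leaving out each library gave 0 to 1. In fibroblast-like cells DESeq2 called 10 members and leaving out wounded library 1 called 1, Rps20. In the interaction, leaving out wounded library 1 called 1, Rps20 (0.76, adjusted p = 0.0243). The cause of these was not tested. All genes called ranged over alternatives from 0 to 2657 in whole libraries, 97 to 622 in basal-like, 11 to 295 in spinous-like, 33 to 1909 in fibroblast-like cells and 392 to 695 in the interaction. The 33 came from leaving out fibroblast-like clusters 10 and 11. The members' median in fibroblast-like cells was 0.48 to 0.94 over the alternatives other than scaling to the member total, which centres the members and gave -0.01. Depth limits the keratinocyte values of wounded library 2, which held 27 basal-like and 25 spinous-like cells, and Rpl3l, which had 14 and 5 UMIs in un-wounded libraries 1 and 2.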
